A study of Mus musculus with 4 samples.

Results

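SR proteins and heterogeneous nuclear ribonucleoproteins (hnRNPs) are the RNA-binding proteins that decide which splice sites of a pre-mRNA are used. They were named as a list of 36 genes, 12 SR proteins and 24 hnRNPs, and 35 of them had a row among the 20027 genes of the table. The SR protein Srsf11 had none and was not analysed here. The libraries came from fibro-adipogenic progenitors (FAPs), the interstitial mesenchymal cells of skeletal muscle, sorted from hind limb muscle as Sca1-positive cells without CD31, CD45, or Vcam1. There were 2 cKO libraries, each from 1 male Prx1-Cre;Bap1f/f mouse, and 2 WT libraries, each from 1 male whose title names Prx1-Cre, all of strain C57BL/6 per the labels and, per the study, in the second week of life. The study text defines its controls as Bap1fl/fl mice and names no driver for them, so it is unclear whether the WT mice carried Cre or floxed alleles. Prx1 drives Cre throughout limb mesenchyme, which also forms cartilage and tendon, so the deletion was not limited to FAPs.

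SR proteins carry RNA recognition motifs and a tail rich in arginine and serine, through which they recruit the spliceosome to exonic enhancers. Many hnRNPs bind silencer elements in exons and introns and hold back splice sites, so the outcome for an exon depends on the balance between both classes. Members of both classes also control their own abundance by splicing their transcripts into forms with a premature stop codon, which nonsense-mediated decay removes. The study examined SMN, a protein that assembles spliceosomal particles, and human SMN2 exon 7 is a well-known target of Srsf1, Tra2b, and hnRNP A1. The table gives RPKM, reads scaled to transcript length and library size, with 1 value per gene, and therefore does not separate productive from unproductive forms.

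Depths of 41.4 to 90.4 M reads were estimated from the values of 402 olfactory receptor genes taken to have no reads. The estimate assumes that 1 read adds 2.5 times the value of a gene with none. On that estimate the least-covered member with a matched transcript length, Hnrnpd, stood for about 752 reads in its lowest library. The targeted gene Bap1 was at 14.2 and 15.3 RPKM in cKO, against 13.95 and 12.9 RPKM in WT, with a log2 fold change of 0.13 and a limma adjusted p of 0.443. Its RPKM covers the whole transcript, whereas a floxed allele loses only the exons between its loxP sites. Per the study this loss causes a frameshift and premature termination. Bap1 was not lower in cKO in RPKM, for reasons that were not tested, so it does not check the genotypes. Over the 11197 genes tested, the median log2 fold change was 0.27 rather than 0. It was -0.01 after median-ratio scaling, -0.02 after quantile normalization, and 0.00 after cyclic loess normalization. Bap1 turned negative under these 3 rescalings, at -0.17, -0.22, and -0.22 on the log2 scale. Fold changes are given on the deposited scale, as log2(RPKM + 1) of cKO minus WT, and set against the median of 0.27. Which scale is closer to the RNA content of the cells was not tested. Of the FAP markers 9 of 12 were lower in cKO, with summed levels of 15150.1 and 13699.5 RPKM in cKO, against 31697 and 29775 RPKM in WT, and Pdgfra, a receptor that identifies FAPs, at 69.7 and 51.3 RPKM in cKO, against 104 and 136 RPKM in WT. Of 12 chondrocyte markers all were higher, with summed levels of 2432 and 2075 RPKM in cKO, against 31.00 and 26.1 RPKM in WT, and Col2a1, the collagen of cartilage, at 1492 and 1294 RPKM in cKO, against 1.697 and 2.003 RPKM in WT. In bulk libraries fewer cells of a type and less RNA per cell cannot be told apart.

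On the deposited scale most SR proteins and hnRNPs were higher in cKO FAPs. In all 22 of the 35 measured members rose and 0 fell (limma, adjusted p under 0.05), whereas 35.9% of all tested genes rose and 6.48% fell. Both cKO values lay above both WT values in 34 members, against 56.8% of all tested genes, and the exception was Hnrnpul1. The median log2 fold change of the 35 members was 0.46. All 35 passed the filter on low values, and the lowest level of any was 4.17 RPKM, in Hnrnpr. With median-ratio scaling 1 member, Srsf1, kept its call, against 14.8% of all genes. With quantile and cyclic loess normalization 9 and 8 members were called higher, against 15.9% and 16.8% of all genes, and 0 were called lower under each of the 3 scalings.

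**Figure D1:**
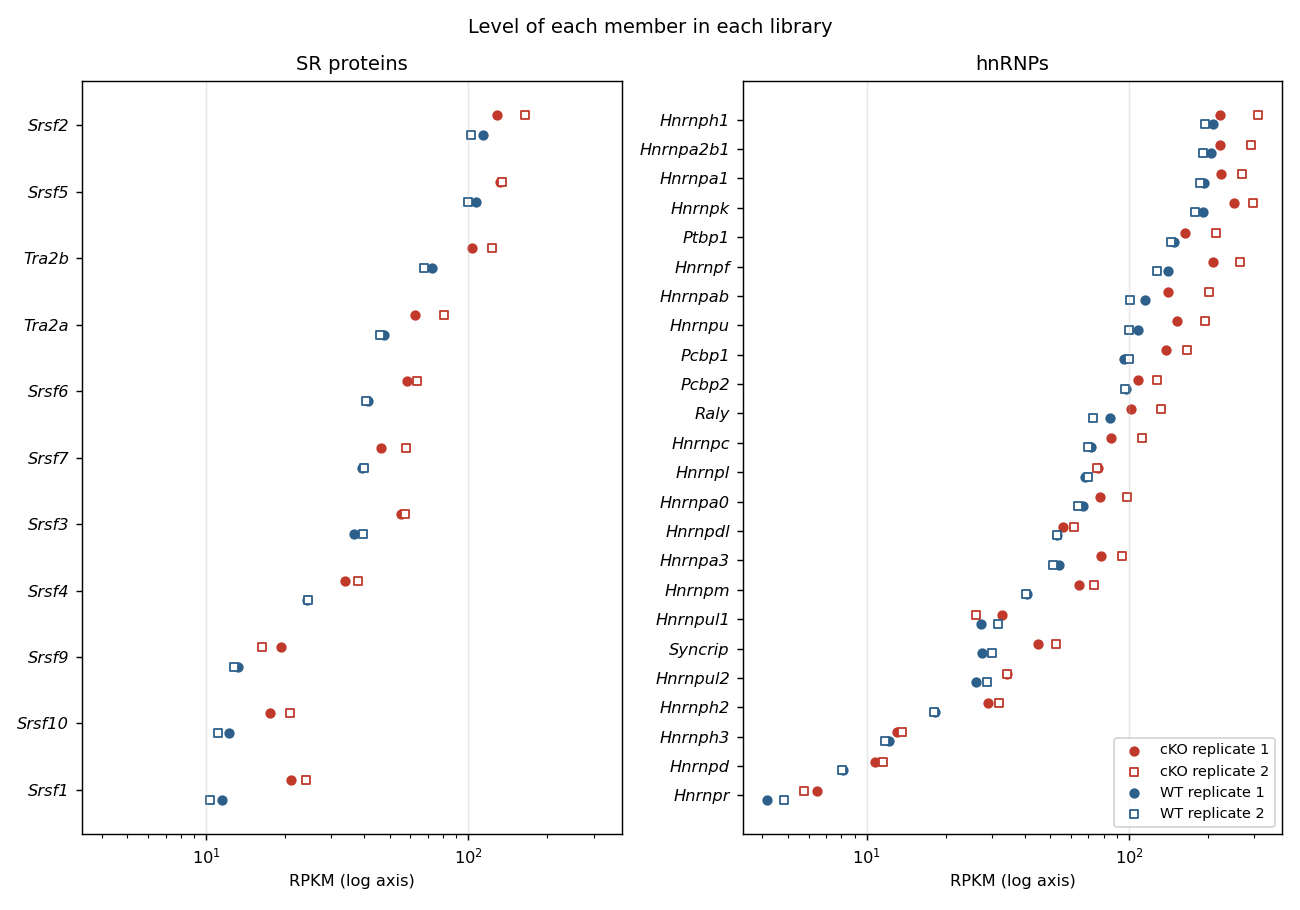
Level of the 11 SR proteins and 24 hnRNPs in each library, in RPKM on a log axis; red symbols are the cKO libraries and blue symbols the WT libraries, drawn above and below each other per gene. The red symbols lie to the right of the blue ones for every member except Hnrnpul1, and the levels run from 4.17 RPKM for Hnrnpr to 310.0 RPKM for Hnrnph1.

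**Figure D2:**
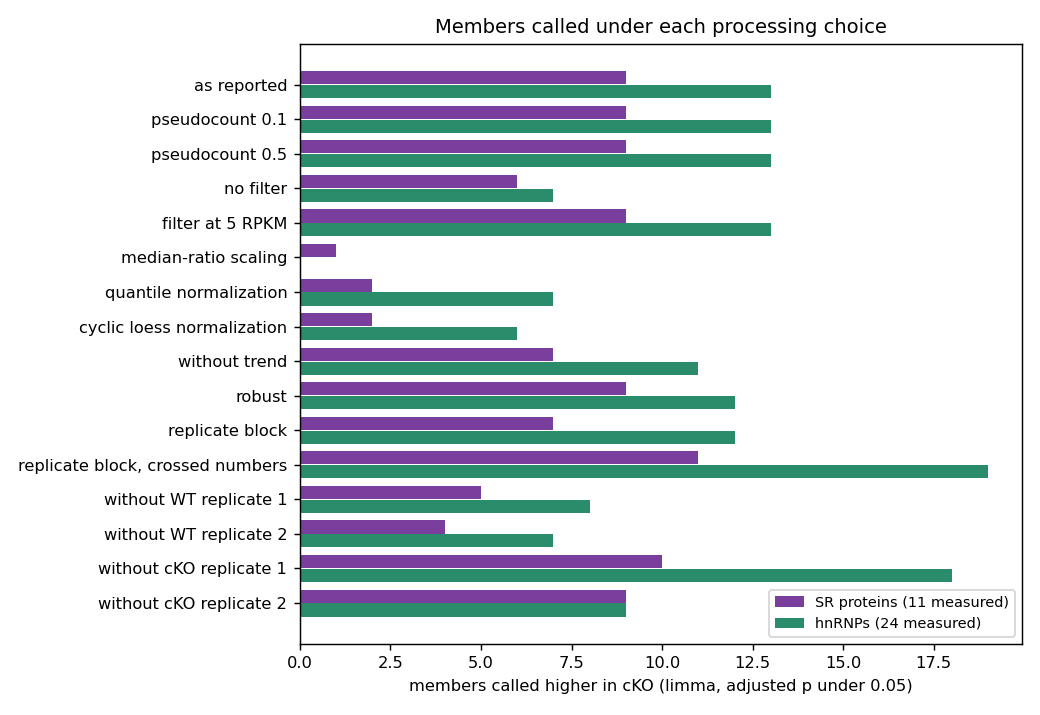
Number of SR proteins (purple) and hnRNPs (green) called higher in cKO by limma at an adjusted p under 0.05, as reported and under each alternative. The counts of 9 and 13 as reported fall to 1 and 0 with median-ratio scaling, to 2 and 7 with quantile normalization, and to 2 and 6 with cyclic loess normalization.

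Whereas 35.9% of all tested genes rose and 6.48% fell, 9 of 11 measured SR proteins rose and 0 fell, or 81.8%. Their log2 fold changes ran from 0.37 to 0.98 with a median of 0.55, and all 11 lay above the median gene. Srsf1, the founding SR protein, which activates constitutive and enhancer-dependent splicing, changed most. It stood at 21.04 and 24.1 RPKM in cKO, against 11.5 and 10.3 RPKM in WT (NM_173374; chromosome 11, 88047373 to 88053755, plus strand, GRCm38). The groups were far apart with no overlap, and the fold was 1.98 with a log2 fold change of 0.98 and a 95% interval from 0.67 to 1.30 (limma adjusted p = 0.00200). This call was made under all 15 alternative settings, and the log2 fold change stayed between 0.62 and 1.08. Srsf9, the closest relative of Srsf1, with a short RS tail, was at 19.3 and 16.4 RPKM in cKO, against 13.2 and 12.8 RPKM in WT. It rose by a log2 fold change of 0.42 (limma adjusted p = 0.0391), and it was 1 of 5 members in which cKO replicate 2 lay below cKO replicate 1. This call was the least stable among SR proteins and ended under 9 of the 15 alternatives, including no filter and the fits that left out either WT library or cKO replicate 1. The ratio of Srsf1 to Srsf9 was 1.09 and 1.47 in cKO, against 0.866 and 0.808 in WT. The predicted gene Gm11508 overlaps Srsf1 on the other strand, and its reads cannot be told apart without strand.

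Srsf10, which turns into a splicing repressor when dephosphorylated, was at 17.5 and 20.9 RPKM in cKO, against 12.2 and 11.1 RPKM in WT. Tra2b, a homolog of Drosophila transformer-2 that binds purine-rich enhancers, was at 103 and 123 RPKM in cKO, against 72.5 and 67.95 RPKM in WT, and its paralog Tra2a at 62.6 and 80.3 RPKM in cKO, against 47.8 and 46.1 RPKM in WT. In each of the 3 the lower cKO value exceeded the higher WT value, and the log2 fold changes were 0.68, 0.67, and 0.58 (limma adjusted p = 0.00815, 0.00651, and 0.0152). Tra2b was also called with quantile and cyclic loess normalization, and Srsf10 and Tra2a were not. The ratio of Tra2b to Tra2a was slightly higher in both cKO libraries, at 1.64 and 1.53 in cKO, against 1.52 and 1.47 in WT.

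Srsf4, Srsf5, and Srsf6 share a pair of RNA recognition motifs and a long RS tail. Srsf6 stood at 58.4 and 63.9 RPKM in cKO, against 41.5 and 40.8 RPKM in WT, and its log2 fold change was 0.56 (limma adjusted p = 0.00802). Srsf4 stood at 33.8 and 37.95 RPKM in cKO, against 24.3 and 24.4 RPKM in WT, with a log2 fold change of 0.54 (limma adjusted p = 0.0110). Srsf5, the most abundant of these, stood at 132 and 134 RPKM in cKO, against 107 and 99.4 RPKM in WT. Its rise was the smallest among the called SR proteins, with a log2 fold change of 0.37 (limma adjusted p = 0.0364), and the call ended under 8 of the 15 alternatives. Srsf6 and Srsf4 were not called under any of the 3 rescalings, where their log2 fold changes were 0.15 to 0.24. Relative to Srsf5, Srsf6 was at 0.444 and 0.476 in cKO, against 0.390 and 0.410 in WT.

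Srsf3, the smallest SR protein, also couples splicing to mRNA export. It was at 55.1 and 57.2 RPKM in cKO, against 36.5 and 39.6 RPKM in WT, with a log2 fold change of 0.55 (limma adjusted p = 0.00832). Srsf3 was not called under any of the 3 rescalings, at log2 fold changes of 0.205 to 0.232. Its relative Srsf7, which has a zinc knuckle besides its RNA recognition motif, was at 46.3 and 57.97 RPKM in cKO, against 39.3 and 39.96 RPKM in WT, and did not pass (limma adjusted p = 0.0612). Srsf2, an SR protein that stays in the nucleus, with the highest mean of the class in both groups, was at 129 and 164 RPKM in cKO, against 114 and 103 RPKM in WT, and did not pass either (limma adjusted p = 0.0530). Both cKO values lay above both WT values in these 2 genes, as in 56.8% of all tested genes. The 95% intervals were 0.05 to 0.70 for Srsf7 and 0.08 to 0.77 for Srsf2. Without cKO replicate 1, which left the higher cKO library, the log2 fold changes were 0.6 for Srsf2 and 0.54 for Srsf7. Without cKO replicate 2 they were 0.25 and 0.22, in the same order. With median-ratio scaling they were 0.10 and 0.06. Of the 11, 5 were called without WT replicate 1 and 4 without WT replicate 2.

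Among hnRNPs, 13 of 24 rose (54.2%) and 0 fell, whereas 35.9% of all tested genes rose and 6.48% fell. The hnRNPs had a median log2 fold change of 0.42 and a range from -0.01 to 0.81. Of the 24, 20 lay above the median gene, and Hnrnpdl, Hnrnph3, Hnrnpl, and Hnrnpul1 below it. The count of 13 was 7 with no filter on low values, 8 without WT replicate 1, and 7 without WT replicate 2. Hnrnpf, which binds runs of guanine, changed most. It stood at 209 and 266 RPKM in cKO, against 140.4 and 128 RPKM in WT (NM_133834; chromosome 6, 117900324 to 117925622, plus strand, GRCm38), and the groups did not overlap. The fold was 1.75, with a log2 fold change of 0.81 and a 95% interval from 0.46 to 1.16 (limma adjusted p = 0.00541). Its relative Hnrnph2, the X-linked member of the family, was at 29.02 and 31.8 RPKM in cKO, against 18.3 and 18.1 RPKM in WT. Hnrnph2 rose as well, with a log2 fold change of 0.71 (limma adjusted p = 0.00392). With median-ratio scaling neither was called (limma adjusted p = 0.0871 for Hnrnpf and 0.0665 for Hnrnph2). With quantile and cyclic loess normalization Hnrnpf was called and Hnrnph2 was not. The 2 other members of this guanine-run family did not pass. Hnrnph1, the most abundant member in WT, was at 222 and 310.0 RPKM in cKO, against 209.6 and 195 RPKM in WT (limma adjusted p = 0.117), and Hnrnph3 had a log2 fold change of 0.14 (limma adjusted p = 0.399). The ratio of Hnrnpf to Hnrnph1 was 0.938 and 0.858 in cKO, against 0.670 and 0.656 in WT, without overlap, whereas that of Hnrnph3 to Hnrnph1 overlapped between the groups.

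The A and B type hnRNPs include the abundant splicing repressors of the class. Hnrnpa3 was at 78.1 and 94.3 RPKM in cKO, against 54.1 and 51.4 RPKM in WT, and rose (log2 fold change 0.69; limma adjusted p = 0.00589). Hnrnpab, at 141 and 201 RPKM in cKO, against 115 and 101 RPKM in WT, rose by a log2 fold change of 0.64 (limma adjusted p = 0.0242), and its cKO libraries differed from each other by a factor of 1.43. Hnrnpa1, the best-studied antagonist of Srsf1, was at 225 and 269.7 RPKM in cKO, against 193 and 186 RPKM in WT. Hnrnpa2b1 was at 223 and 291 RPKM in cKO, against 205 and 191 RPKM in WT. In both the cKO values lay above the WT values, but neither passed (limma adjusted p = 0.0574 and 0.0976), and their 95% intervals ran from 0.06 to 0.69 and from 0.00 to 0.72. Hnrnpa1 has many processed copies in the genome, which may share its reads. The ratio of Hnrnpa3 to Hnrnpa1 was 0.347 and 0.350 in cKO, against 0.280 and 0.277 in WT, whereas that of Hnrnpa2b1 to Hnrnpa1 overlapped between the groups. Hnrnpa0 rose by a log2 fold change of 0.42 with a limma adjusted p of 0.0468, a call that ended under 9 of the 15 alternatives.

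Proteins that bind poly-C stretches through KH domains formed the next group. Hnrnpk, a protein with roles from transcription to translation, was at 251 and 298 RPKM in cKO, against 191 and 178 RPKM in WT, and had the highest mean of all members in cKO. It rose by a log2 fold change of 0.56 (limma adjusted p = 0.0141), a call that ended under 4 of the 15 alternatives, including those without WT replicate 1 and without WT replicate 2. Pcbp1, an intronless gene, was at 139 and 167 RPKM in cKO, against 95.8 and 99.9 RPKM in WT, and rose by 0.63 on the log2 scale (limma adjusted p = 0.00839). Pcbp2 had a log2 fold change of 0.28 and did not pass (limma adjusted p = 0.116). Pcbp1 relative to Pcbp2 stood at 1.28 and 1.30 in cKO, against 0.982 and 1.03 in WT.

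Several further members rose with groups that did not overlap. Hnrnpm, a regulator of exon choice during epithelial-mesenchymal transition, was at 64.7 and 73.5 RPKM in cKO, against 40.9 and 40.6 RPKM in WT (log2 fold change 0.75; limma adjusted p = 0.00337). Syncrip, also called hnRNP Q, was at 44.9 and 52.9 RPKM in cKO, against 27.4 and 30.1 RPKM in WT (log2 fold change 0.74; limma adjusted p = 0.00455). Hnrnpu, a scaffold protein of chromatin and nuclear RNA, was at 152 and 195 RPKM in cKO, against 108 and 100.2 RPKM in WT (log2 fold change 0.72; limma adjusted p = 0.00787). Under the rescalings, Hnrnpm and Hnrnpu were called with quantile and cyclic loess normalization but not with median-ratio scaling. Syncrip was at the threshold with quantile normalization and was not called with cyclic loess normalization (limma adjusted p = 0.0506) or median-ratio scaling (limma adjusted p = 0.0712). Raly and Hnrnpc, close relatives that bind uridine-rich RNA, and Hnrnpd, an AU-rich element protein that promotes mRNA decay, rose by log2 fold changes of 0.56, 0.46, and 0.42 (limma adjusted p = 0.0243, 0.0392, and 0.0379). The call ended under 6 of the 15 alternatives for Raly and under 8 for each of Hnrnpc and Hnrnpd, including the 3 rescalings, no filter, and the fits without WT replicate 2 or cKO replicate 2 for all 3, and without WT replicate 1 for Hnrnpc and Hnrnpd.

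Hnrnpul1, a relative of Hnrnpu, was the only measured member with a negative log2 fold change on the deposited scale, at -0.01. It was also the only one whose groups overlapped. It stood at 32.7 and 25.98 RPKM in cKO, against 27.2 and 31.7 RPKM in WT (NM_144922; chromosome 7, 25721165 to 25754757, minus strand, GRCm38), and the 95% interval around its log2 fold change spanned -0.36 to 0.34 (limma adjusted p = 0.968). The higher cKO value was that of replicate 1, unlike in most members. Hnrnpu relative to Hnrnpul1 was 4.65 and 7.503 in cKO, against 3.99 and 3.16 in WT. The remaining members without a call were Hnrnpul2, Hnrnpdl, Hnrnpl, Hnrnpr, and Ptbp1, a repressor of neuronal exons, with log2 fold changes from 0.14 for Hnrnpl to 0.37 for Hnrnpr and limma adjusted p from 0.0670 to 0.356. Hnrnpdl, Hnrnph3, and Hnrnpl turned to negative log2 fold changes under all 3 rescalings, at -0.16 to -0.21. Hnrnpul1 was at -0.325 with median-ratio scaling, -0.375 with quantile, and -0.377 with cyclic loess normalization. It was not called under any of them (limma adjusted p = 0.135, 0.116, and 0.117).

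**Figure D3:**
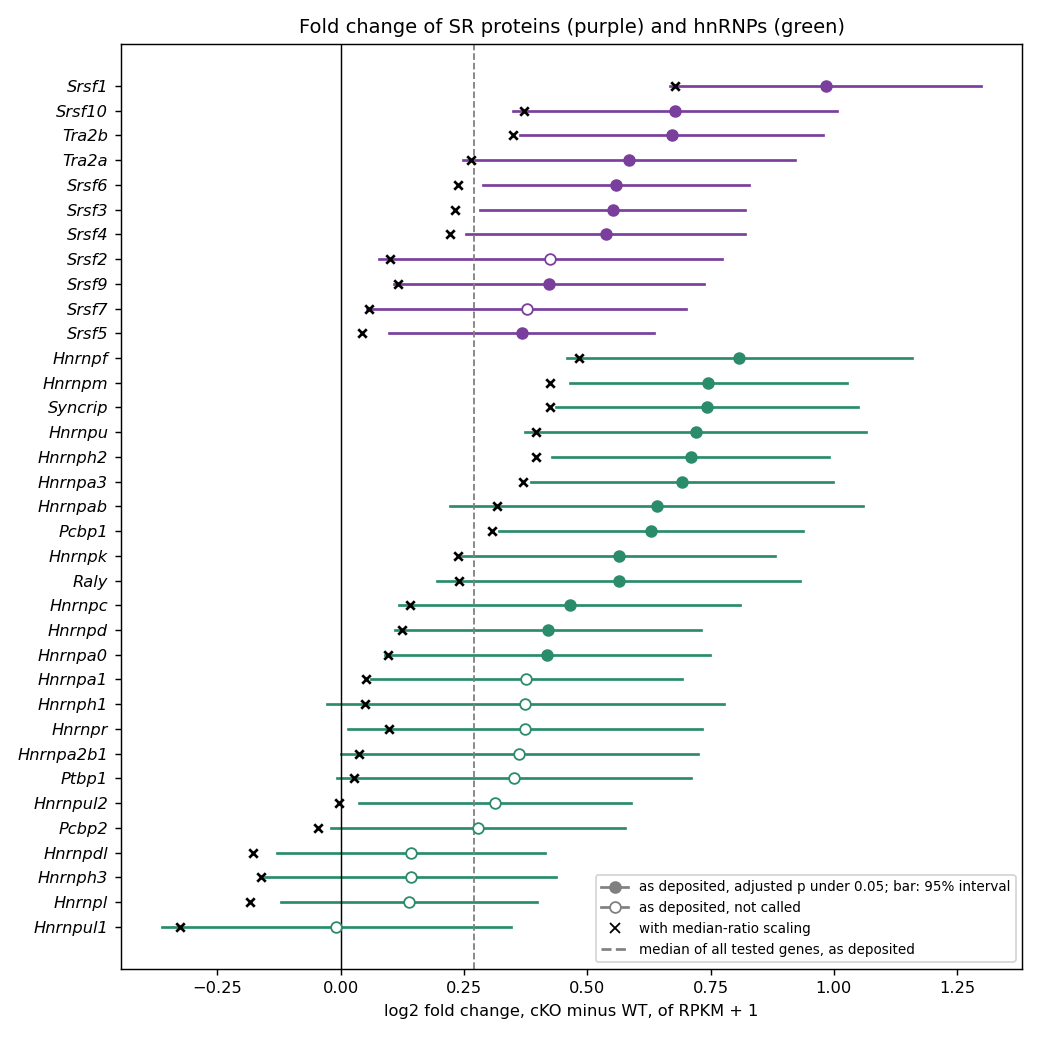
Log2 fold change of RPKM + 1, cKO minus WT, for each member, with the 95% interval of limma as a bar; filled circles were called at an adjusted p under 0.05, crosses give the value with median-ratio scaling, and the dashed line is the median of all tested genes at 0.27. SR proteins (purple) lie between 0.37 and 0.98 and hnRNPs (green) between -0.01 and 0.81, and the crosses of most members lie nearer to 0.

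The upstream sequences of 3 members are shown because these are the SR protein and the hnRNP with the largest rise and the hnRNP whose groups overlapped. Each is the 250 bases before the start of transcription from RefSeq (GRCm38.p6), written 5′ to 3′ on the strand of the gene, with capitals marking motif matches on either strand. The first motif was the GC box with the letters GGGCGG. Another was the CCAAT box, which is named by its letters. The last was the core of the YY1 motif, read as AAGATGGC. The windows lie at chr11:88047123-88047372 (plus strand) for Srsf1, chr6:117906532-117906781 (plus strand) for Hnrnpf, and chr7:25754760-25755009 (minus strand) for Hnrnpul1. The window of Hnrnpf precedes the RefSeq start, which lies inside the gene span given above because GENCODE also lists transcripts that start further upstream.
Srsf1: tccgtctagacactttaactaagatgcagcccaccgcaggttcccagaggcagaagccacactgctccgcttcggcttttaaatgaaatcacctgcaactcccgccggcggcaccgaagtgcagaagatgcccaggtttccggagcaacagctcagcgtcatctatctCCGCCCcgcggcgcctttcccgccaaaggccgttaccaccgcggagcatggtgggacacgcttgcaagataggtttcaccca
Hnrnpf: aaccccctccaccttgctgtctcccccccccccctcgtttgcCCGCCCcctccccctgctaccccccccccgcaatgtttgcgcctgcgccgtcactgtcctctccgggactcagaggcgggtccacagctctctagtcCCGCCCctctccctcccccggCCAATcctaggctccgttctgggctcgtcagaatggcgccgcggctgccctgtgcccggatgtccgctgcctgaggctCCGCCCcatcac
Hnrnpul1: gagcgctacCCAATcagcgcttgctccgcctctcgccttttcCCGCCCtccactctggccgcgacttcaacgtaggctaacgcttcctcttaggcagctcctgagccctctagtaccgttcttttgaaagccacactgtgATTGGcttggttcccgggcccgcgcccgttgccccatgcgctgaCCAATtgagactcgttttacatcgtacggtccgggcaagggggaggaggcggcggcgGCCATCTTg

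The GC box occurred once before Srsf1 and in all 3 of these windows. Over the class it was found in 10 of 11 SR promoters and 16 of 23 hnRNP promoters (90.9% and 69.6%), against 62.5% of the 8950 tested genes with a sequence. The CCAAT box was found in 4 of 11 SR promoters and 14 of 23 hnRNP promoters (36.4% and 60.9%), against 35.5% of all, and was present before Hnrnpf and Hnrnpul1 but not before Srsf1. AAGATGGC, present just before the start of Hnrnpul1, was found in 0 of 11 SR promoters and 2 of 23 hnRNP promoters, against 2.04% of all. The core of the ETS motif, CCGGAAGT, was found in 2 SR and 2 hnRNP promoters, against 6.13% of all. The E-box, read as CACGTG, was found in 0 SR and 4 hnRNP promoters, against 8.50% of all. The TATA box, read as TATAAA, was found in 2 SR promoters and 1 hnRNP promoter, against 6.36% of all. The BANP element, TCTCGCGA, was found in 1 promoter of each class, against 2.07% of all, and the cAMP response element, TGACGTCA, in 1 SR promoter and 0 hnRNP promoters, against 2.83% of all. All 8 motifs were read on both strands, and matches of different motifs may overlap. A match of letters is not evidence of binding, and windows without a match say nothing about a factor.

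To ask whether the balance between the classes differed, the levels of each class were summed in every library. SR proteins summed to 677.1 and 780.2 RPKM in cKO, against 519.1 and 495.0 RPKM in WT. hnRNPs summed to 2545 and 3164 RPKM in cKO, against 2066 and 1975 RPKM in WT. Both sums were thus higher in cKO, and together the 35 genes made up 0.883% and 1.04% of all RPKM in cKO, against 0.712% and 0.693% in WT. The ratio between the classes, however, did not separate the groups. SR proteins stood at 26.6% and 24.7% of the hnRNP sum in cKO, against 25.1% and 25.1% in WT. The median log2 fold change of SR proteins exceeded that of hnRNPs by 0.13 as deposited and by 0.12 with median-ratio scaling. With quantile and cyclic loess normalization the excess was -0.06 and 0.00. The difference between the median log2 levels of the classes had a pooled spread of 0.142 between libraries of a group. That spread came mostly from the cKO libraries, where the hnRNP median was 6.37 and 6.73, against 6.14 and 6.15 in WT. It concerns levels rather than fold changes, so it does not judge the excess. The share of members called higher was 81.8% for SR proteins and 54.2% for hnRNPs, against 35.9% of all tested genes. The difference between the classes was not tested because genes of a class are not replicates.

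**Figure D4:**
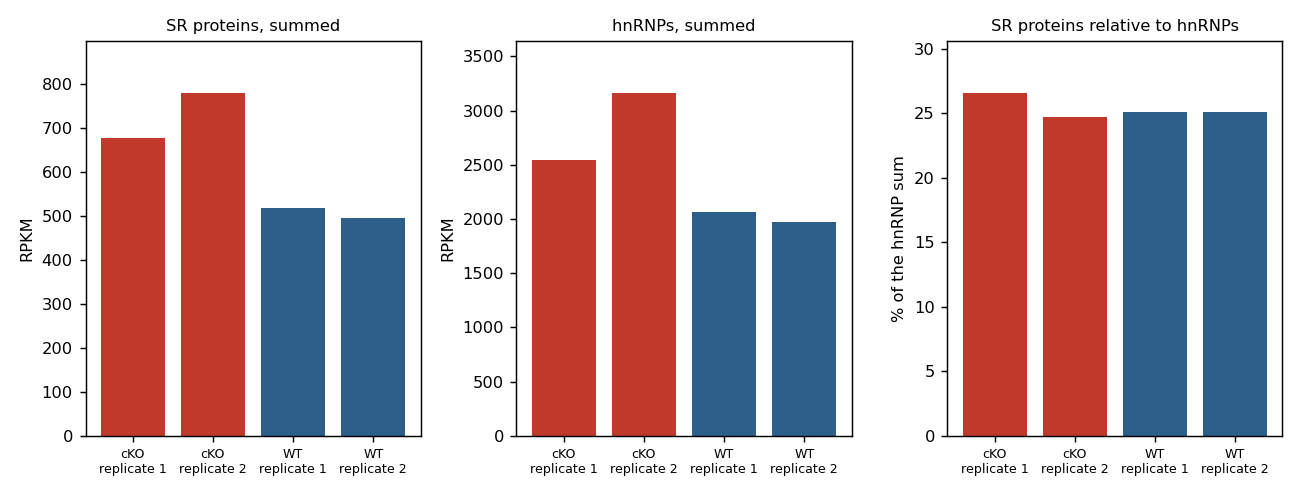
Summed RPKM of the 11 SR proteins, of the 24 hnRNPs, and the first as a percent of the second, with 1 bar per library, red for cKO and blue for WT. Both sums are higher in both cKO libraries, whereas the percent lies between 24.7 and 26.6 in all 4 libraries and the groups overlap.

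Within each class, shares of the class sum were compared, since a share does not depend on a single scaling factor per library, as in median-ratio scaling. Quantile and cyclic loess normalization move genes by different amounts, and shares were not recomputed under them. Of SR proteins, 3 took a larger share in both cKO libraries than in both WT libraries, against 23.8% of all tested genes set against the same sum, and 2 took a smaller one, against 44.3%. Shares within a class add up to the whole, so larger shares of some members must be met by smaller shares of others. Other genes set against the sum have no such limit, so these percents are not a like comparison in either class. Srsf1 took 3.11% and 3.09% in cKO, against 2.21% and 2.09% in WT, of the SR sum, and Tra2b 15.2% and 15.8% in cKO, against 13.98% and 13.7% in WT. The other with a larger share was Srsf10, and those with a smaller share were Srsf5 and Srsf7. Srsf2 and Srsf5 together remained the largest contributors, with Srsf2 at 18.99% and 21.03% in cKO, against 21.9% and 20.7% in WT, and Srsf5 at 19.4% and 17.2% in cKO, against 20.5% and 20.1% in WT. The order of levels changed little, and over both classes no member moved by more than 4 places between the groups.

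Of hnRNPs, 8 took a larger share in both cKO libraries, against 23.8% of all genes, and 10 a smaller one, against 38.4%. Those with a larger share were Hnrnpa3, Hnrnpf, Hnrnph2, Hnrnpk, Hnrnpm, Hnrnpu, Pcbp1, and Syncrip. Hnrnpf took 8.200% and 8.41% in cKO, against 6.797% and 6.49% in WT, of the hnRNP sum, and Hnrnpm 2.54% and 2.32% in cKO, against 1.98% and 2.05% in WT. Those with a smaller share were Hnrnpa0, Hnrnpa1, Hnrnpa2b1, Hnrnpdl, Hnrnph1, Hnrnph3, Hnrnpl, Hnrnpul1, Ptbp1, and Pcbp2. Of these, Hnrnpa0 was called higher in RPKM, and in all but Hnrnpul1 both cKO RPKM values lay above both WT values. Hnrnpa1 took 8.85% and 8.52% in cKO, against 9.36% and 9.404% in WT, Ptbp1 6.404% and 6.798% in cKO, against 7.17% and 7.34% in WT, and Hnrnpl 2.998% and 2.39% in cKO, against 3.28% and 3.54% in WT. Some close relatives stood on both sides, as with Pcbp1 and Pcbp2. Of 17 ratios between relatives 13 did not overlap between the groups, and those of Srsf3 to Srsf7, Hnrnpa2b1 to Hnrnpa1, Hnrnph3 to Hnrnph1, and Raly to Hnrnpc did. With 2 libraries against 2, the smallest two-sided p of an exact permutation test on a single share or ratio is 0.333, and these are descriptions. The pairs and the member on top of each ratio were chosen with values known, so nothing is read from their count.

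**Figure D5:**
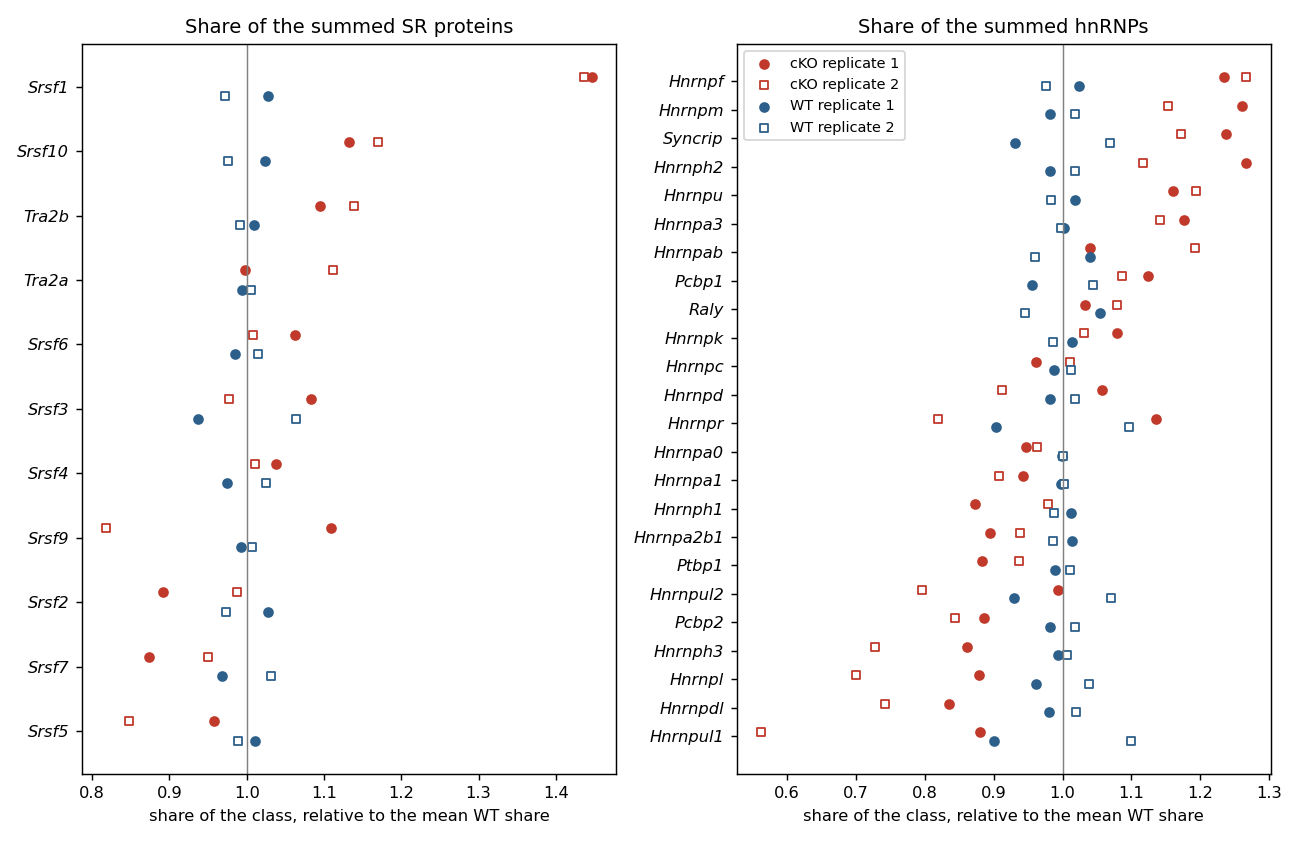
Share of each member in the summed RPKM of its class, divided by its mean share in WT, with red symbols for the cKO libraries and blue for the WT libraries and a grey line at 1. Srsf1, Srsf10, and Tra2b lie right of the WT symbols among SR proteins, and among hnRNPs the genes from Hnrnpf to Hnrnpa3 at the top do so whereas those from Hnrnpl to Hnrnpul1 at the bottom lie left of the line in cKO.

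The 2 cKO libraries differed from each other. cKO replicate 2 lay above cKO replicate 1 in 30 of 35 members, 10 of 11 SR proteins and 20 of 24 hnRNPs, whereas this held for 43.2% of all tested genes. The 5 exceptions were Srsf9, Hnrnpl, Hnrnpr, Hnrnpul1, and Hnrnpul2, and the largest excess was that of Hnrnpab, by a factor of 1.43. WT replicate 1 lay above WT replicate 2 in 26 of 35 members, against 42.4% of all genes. By the depth estimate above, cKO replicate 2 was the shallowest library at 41.4 M reads and cKO replicate 1 the deepest at 90.4 M. The part of depth in this pattern was not tested.

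The annotated splice forms of the genes were compared with those of all tested genes (GENCODE, GRCm38), since both classes are known for unproductive splicing. A transcript annotated as a target of nonsense-mediated decay was listed for 10 of 11 measured SR proteins (90.9%) and 11 of 24 hnRNPs (45.8%), against 28.7% of 11087 tested genes with an annotation. Srsf10 was the SR protein without one. Retained-intron transcripts were listed for 9 of 11 SR proteins and 16 of 24 hnRNPs (81.8% and 66.7%), against 60.4% of all. The median number of transcripts was 7 for SR proteins and 10 for hnRNPs, against 5 over all genes, so more forms of any kind were listed for these genes. The span of 4 SR proteins and 11 hnRNPs overlaps a gene on the other strand, and because no use of strand is stated for the counting, their values may include reads of that gene.

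Other genes of the pathway were described from lists chosen for their roles. Of kinases that phosphorylate SR proteins and receptors that import both classes, 5 of 11 tested rose (45.5%, against 35.9% of all tested genes) and 0 fell, with a median log2 fold change of 0.35. The count was 3 without WT replicate 1 and 0 under any of the 3 rescalings. Srpk1, which phosphorylates RS tails in the cytoplasm, stood at 20.8 and 24.8 RPKM in cKO, against 13.8 and 13.2 RPKM in WT, and Tnpo3, which imports SR proteins, at 21.2 and 20.1 RPKM in cKO, against 12.4 and 12.96 RPKM in WT (limma adjusted p = 0.00595 and 0.00537). Clk1, Clk2, Clk3, and Clk4, the nuclear kinases of SR proteins, named after their values were seen, were not called (limma adjusted p from 0.0623 to 0.620). Of other splicing proteins with an RS domain, 17 of 24 rose and 0 fell, with a median of 0.42, and 8 rose without WT replicate 1 or without WT replicate 2. U2af2, the large subunit of the factor that binds the polypyrimidine tract, stood at 83.8 and 91.6 RPKM in cKO, against 55.7 and 53.2 RPKM in WT, and Luc7l, a U1-associated protein, at 25.7 and 31.5 RPKM in cKO, against 15.1 and 14.5 RPKM in WT (limma adjusted p = 0.00412 and 0.00291).

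Of other proteins related to hnRNPs, 15 of 21 rose and 0 fell, with a median log2 fold change of 0.52, and 8 rose without WT replicate 2. Rbm3, a cold-inducible RNA-binding protein, stood at 43.9 and 49.3 RPKM in cKO, against 27.6 and 26.1 RPKM in WT, and Rbmxl1 at 33.1 and 38.7 RPKM in cKO, against 19.5 and 18.2 RPKM in WT (limma adjusted p = 0.00310 and 0.00244). Rbmxl1 is a retrogene of Rbmx, with which it may share reads. Other splicing regulators divided, with 10 of 17 higher and 2 lower. Fubp1 and Celf1 were among the higher, at 11.2 and 11.7 RPKM in cKO, against 5.33 and 5.05 RPKM in WT for Fubp1 and at 18.7 and 21.95 RPKM in cKO, against 9.94 and 9.77 RPKM in WT for Celf1 (limma adjusted p = 0.00193 and 0.00210). The lower were Celf2 and Nova1, both named after their values were seen, with log2 fold changes of -0.87 and -0.75 (limma adjusted p = 0.00454 and 0.0487). Of nonsense-mediated decay and exon junction factors, 10 of 17 rose and 0 fell, with a median of 0.48, and 5 rose without WT replicate 1 and 4 without WT replicate 2. Smg5 and Smg8, of which Smg5 acts in dephosphorylation of Upf1 and Smg8 with the kinase Smg1, had log2 fold changes of 0.78 and 0.83 (limma adjusted p = 0.00346 and 0.00566). Over all tested genes 35.9% rose and 6.48% fell as deposited. With median-ratio scaling these 5 lists, of 11 to 24 tested genes each, had 0 to 3 genes called higher and 0 to 2 called lower. Over all tested genes 14.8% were called higher and 14.2% lower with that scaling. Medians of these lists exceeded that of all genes by 0.09 to 0.26, against 0.15 for hnRNPs and 0.29 for SR proteins.

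Markers of other cells and states also changed, some upward and some downward, and their part in the result was not tested. Of all tested genes 35.9% rose and 6.48% fell. Of proliferation genes 12 of 18 rose and 0 fell, with summed levels of 205 and 226 RPKM in cKO, against 145 and 149.8 RPKM in WT, and a median log2 fold change of 0.56. This count was 2 without WT replicate 1, 8 without WT replicate 2, 7 with no filter, 6 with a filter at 5 RPKM, and 4 to 5 under the rescalings. Mcm6 and Mcm3, subunits of the replicative helicase, had the smallest p, with log2 fold changes of 1.08 and 0.77 (limma adjusted p = 0.00117 and 0.00571). All 7 tenocyte markers (summed 1840.3 and 1600.1 RPKM in cKO, against 201 and 182 RPKM in WT), all 5 perineurial markers (summed 130.2 and 185 RPKM in cKO, against 43.7 and 39.4 RPKM in WT), and 7 of 9 pericyte and smooth muscle markers (summed 352 and 460.3 RPKM in cKO, against 63.2 and 87.9 RPKM in WT) were also higher. Of the 6 Schwann cell markers, 5 were tested and rose (summed 33.8 and 42.4 RPKM in cKO, against 13.6 and 16.1 RPKM in WT), of which 3 were called without WT replicate 1, 3 without cKO replicate 2, and 2 under each rescaling. Myofiber markers were lower in 5 of 6 (summed 23.04 and 21.5 RPKM in cKO, against 62.1 and 83.8 RPKM in WT). Endothelial markers summed to 36.2 and 41.3 RPKM in cKO, against 28.8 and 30.8 RPKM in WT, with 2 of 6 called higher, hematopoietic markers to 9.41 and 13.4 RPKM in cKO, against 9.62 and 9.73 RPKM in WT, with 1 of 3, and muscle stem cell markers to 50.2 and 64.8 RPKM in cKO, against 39.2 and 39.04 RPKM in WT, with 1 higher and 1 lower of 3. Ptprc, which encodes the excluded antigen CD45, and Pax7, which marks muscle stem cells, were near 0, at 0.254 and 0.195 RPKM in cKO, against 0.00164 and 0.111 RPKM in WT for Ptprc and 0.0988 and 0.00226 RPKM in cKO, against 0.0222 and 0.0851 RPKM in WT for Pax7. Pecam1, which encodes CD31, was at 0.537 and 1.63 RPKM in cKO, against 1.67 and 3.12 RPKM in WT, and Vcam1 at 18.3 and 20.5 RPKM in cKO, against 27.7 and 24.96 RPKM in WT. Ly6a, which encodes Sca1, the antigen sorted for, was lower, at 108 and 47.0 RPKM in cKO, against 216 and 120 RPKM in WT (limma adjusted p = 0.0480).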

How the data were processed

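RNA-seq of sorted FAPs from 2 cKO and 2 WT mice was analysed. The deposited values are RPKM, made by the authors as reads scaled to transcript length and library size, 1 column per library. Their processing notes name TopHat2 2.0.9, bedtools, edgeR, mm9, and mm10, without the step of each. Annotation, counting rule, and strand setting are not given in the sources used here. Low values lay above the no-read value by whole multiples of the assumed step of 1 read in 59.5% of 1202 cases (tolerance 0.02 steps). Whole reads were therefore not recovered, and depths and read numbers are estimates.

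Genes with at least 1 RPKM in 2 libraries (11197) were tested on log2(RPKM + 1) with limma 3.58.1 in R 4.3.3 (lmFit, eBayes with trend, two-sided, Benjamini-Hochberg over all tested genes, threshold 0.05), and the procedure was tested on simulated data. It did not recover the smallest changes made there, so a gene without a call may still differ. The added 1 understates changes of low genes. Alternatives changed the pseudocount, filter, scaling, trend, replicate block, and libraries. With 1 animal per library, p-values rest on 2 animals per group and a spread pooled over genes. An exact permutation of 2 against 2 cannot go under 0.333. Members and lists were chosen with earlier results of these data known. All SR proteins, the 8 hnRNPs with the largest called change, the 4 most abundant, and any with a negative change are given per library, and for other pathway lists the 2 genes with the smallest p. Genes were matched by symbol and RefSeq accession, and 34 of 35 members had an upstream sequence. Figures were drawn with matplotlib 3.10.9.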

Additional observations from a re-analysis of the deposited data

How the results depend on the processing

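Counts depended on the scaling, the filter, and single libraries, and the cause was not tested. In the order median-ratio, quantile, and cyclic loess, 1661, 1777, and 1885 genes were called higher, against 4016 as deposited, and 1593, 1818, and 1710 lower, against 726. SR proteins called higher numbered 1, 2, and 2, against 9, and hnRNPs 0, 7, and 6, against 13. With no filter 7 hnRNPs were called. The excess of the SR median over the hnRNP median was -0.06 with quantile normalization, against 0.13. Leaving out 1 library gave 2386 to 4044 genes higher (2413 without WT replicate 1 and 2386 without WT replicate 2), 390 to 1258 lower (390 without WT replicate 2 and 1258 without cKO replicate 1), 4 to 10 SR proteins, 7 to 18 hnRNPs, and a difference of medians of 0.02 to 0.15. Signs turned, in the same order, for Hnrnpdl (-0.18, -0.16, -0.19), Hnrnph3 (-0.16, -0.21, -0.20), Hnrnpl (-0.18, -0.16, -0.16), Hnrnpul2 (0.00, -0.06, -0.05), and Bap1 (-0.17, -0.22, -0.22). Pcbp2 turned to -0.05 with median-ratio scaling, and Hnrnpul1 to 0.10 without WT replicate 2 and 0.15 without cKO replicate 2. Under the 3 rescalings Hnrnpul1 stayed negative (-0.325, -0.375, -0.377). No SR protein turned sign under any alternative. Replicate numbers were not taken as pairs, since only 2 pairs exist and deviations of same-numbered libraries correlated at -0.30. With a replicate block 3552 genes were called higher and 731 lower, with 7 SR proteins and 12 hnRNPs. Crossed pairing, chosen after seeing the data, gave 4807 and 1088, with 11 SR proteins and 19 hnRNPs.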
